A study of Mus musculus with 18 samples.

Results

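The 10 genes described here build or equip the intestinal brush border, and they were taken as a fixed list of gene symbols from a table of 47729 genes. Of these, 7 encode structural proteins of the microvillus (*Vil1*, *Eps8l3*, *Cdhr2*, *Cdhr5*, *Myo1a*, *Espn* and *Ezr*) and 3 encode digestive hydrolases of the apical membrane (*Sis*, *Mep1a* and *Anpep*). All 10 were present once in the table and passed the filter on low counts. *Sis* passed it only through the recovery libraries, with at most 29 reads in any other. Bulk RNA of mouse colon was sequenced in WT and *Cldn2*KO animals, the latter lacking the gene of the tight junction protein claudin-2. All mice were on a C57BL/6 background, and the study states that littermates, matched for age and sex, served as controls. The age is not given in the sources used here. Levels of the sex-linked transcript *Xist*, given below, were not balanced between all groups. Mice of each genotype were untreated controls, were in recovery after a colitis induced with dextran sulfate sodium (DSS), a sulfated sugar polymer given to damage the bowel lining, or had developed colitis-associated cancer. The last group, AOM/DSS, received 1 dose of the carcinogen azoxymethane (AOM) at 10 mg per kg body weight and then 3 cycles of 2.5% DSS. Each of the 6 groups held 3 libraries of bulk tissue, with 17643058 to 27390344 reads counted in each. *Cldn2* itself had 1 to 12 reads in the 9 *Cldn2*KO libraries and 680 to 12389 reads in the 9 WT libraries, so the genotype labels held.

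The brush border is the carpet of microvilli on the apical surface of absorptive cells. Each microvillus has a core of parallel actin filaments, which villin (*Vil1*) and espin (*Espn*) bundle. *Eps8l3* encodes a protein of the EPS8 family. Myosin-1a (*Myo1a*) and ezrin (*Ezr*) tie the core to the membrane, and the cadherins *Cdhr2* and *Cdhr5* link the tips of neighbouring microvilli. Sucrase-isomaltase (*Sis*) splits sucrose and starch fragments, meprin alpha (*Mep1a*) is a metalloprotease, and aminopeptidase N (*Anpep*) trims peptides. *Sis* is best known as an enzyme of the small intestine, whereas the structural genes serve microvilli along the whole bowel.

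In the count table's GRCm38 coordinates, *Vil1* lies at chr1:74409376-74435559 on the plus strand, *Eps8l3* at chr3:107877229-107892900 (plus), *Cdhr2* at chr13:54701461-54736662 (plus) and *Cdhr5* at chr7:141269085-141276786 (minus). *Myo1a* lies at chr10:127705170-127720887 (plus), *Espn* at chr4:152120331-152152371 (minus) and *Ezr* at chr17:6738041-6782784 (minus). The hydrolase genes are at chr3:72888557-72967863 for *Sis*, chr17:43474324-43502812 for *Mep1a* and chr7:79821803-79861059 for *Anpep*, all on the minus strand. Exons of *Vil1* overlap *Usp37*, those of *Eps8l3* overlap 4933431E20Rik and those of *Ezr* overlap *Sytl3*, each on the other strand. These partners had 16362, 14377 and 446 reads over all libraries, against 244708 for *Vil1*, 63768 for *Eps8l3* and 234270 for *Ezr*. The sources used here do not say whether counting used strand, so a share of the reads of these 3 genes is uncertain.

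The stretches upstream of the start are shown for 4 genes whose levels went different ways, *Sis* (0 to 182.5 in the counts-per-million unit, CPM, after scaling of the libraries by a trimmed mean of their ratios, TMM), *Cdhr2*, *Vil1* and *Eps8l3*. They are RefSeq sequences (GRCm38.p6), 5′ to 3′ on the strand of the gene, and bases inside the gene as annotated in the count table were left off. Capitals mark letters that match, on either strand, TTTAT (the core of sites bound by CDX factors), GTTAAT (part of a site for HNF1 factors) or CAAAGT (part of an HNF4 site). The 3 motifs were chosen with expression values known.
*Sis*, chr3:72967864-72968113, minus strand: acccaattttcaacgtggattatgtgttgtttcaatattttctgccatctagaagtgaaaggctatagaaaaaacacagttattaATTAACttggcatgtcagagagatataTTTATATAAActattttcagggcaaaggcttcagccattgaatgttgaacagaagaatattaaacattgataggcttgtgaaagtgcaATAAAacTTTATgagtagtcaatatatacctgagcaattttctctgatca
*Cdhr2*, chr13:54701213-54701460, plus strand: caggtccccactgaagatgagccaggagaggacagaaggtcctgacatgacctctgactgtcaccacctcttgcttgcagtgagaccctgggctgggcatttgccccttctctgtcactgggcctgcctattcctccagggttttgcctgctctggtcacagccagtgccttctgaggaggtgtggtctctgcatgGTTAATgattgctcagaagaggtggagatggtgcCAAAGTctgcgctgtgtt
*Vil1*, chr1:74409134-74409375, plus strand: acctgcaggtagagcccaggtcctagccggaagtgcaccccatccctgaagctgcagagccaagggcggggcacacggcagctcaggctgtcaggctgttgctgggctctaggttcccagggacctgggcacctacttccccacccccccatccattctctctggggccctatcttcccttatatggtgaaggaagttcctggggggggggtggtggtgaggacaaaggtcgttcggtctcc
*Eps8l3*, chr3:107876980-107877228, plus strand: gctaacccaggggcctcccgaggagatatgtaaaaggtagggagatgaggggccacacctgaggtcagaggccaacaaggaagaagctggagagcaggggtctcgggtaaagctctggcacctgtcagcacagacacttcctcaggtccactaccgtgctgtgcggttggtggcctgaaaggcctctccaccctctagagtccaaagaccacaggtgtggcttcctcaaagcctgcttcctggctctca
The *Sis* stretch held 4 TTTAT matches, a pair of which lie end to end 138 to 129 bases before the start, and 1 GTTAAT match. *Cdhr2* held 1 GTTAAT and 1 CAAAGT match, and *Vil1* and *Eps8l3* held none of these letters. Over the 250 bases before the start, TTTAT occurred in 3 of the 10 genes (*Sis*, *Cdhr5* and, in 1 of its windows, *Espn*) and in 37.3% of 32851 windows of all genes. GTTAAT occurred in 2 genes (*Sis* and *Cdhr2*) against 6.43% of windows, and CAAAGT in 2 (*Cdhr2* and *Mep1a*) against 12.6%. The matches describe the sequence and are not evidence of binding.

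Before the comparisons, 1 property of the libraries has to be given, because it moved with several of these genes. Posterior Hox genes, which are expressed at the distal end of the bowel, were near absent in all 6 recovery libraries and in replicate 2 of the WT controls, with *Hoxb13* at 0 to 0.502 CPM, and present in the other 11 libraries at 198 to 570.1 CPM. All 5 posterior Hox genes listed were called lower in recovery in both genotypes. Over all genes 12.2% were called lower and 10.0% higher in WT recovery, and 10.0% and 9.43% in *Cldn2*KO recovery. Of 9 markers of small intestine enterocytes, *Fabp2* (1715 CPM in that control, 405 to 2173 CPM in recovery, 6.43 to 37.6 CPM elsewhere), *Slc10a2* (286, 665 to 1414 and 4.07 to 25.3 CPM) and *Apob* (404, 249 to 880 and 62.4 to 206 CPM) followed the same split. *Slc5a1* and *Mttp* did not, at 151 and 3.27 CPM in that control against 224 and 238 CPM and 3.84 and 4.25 CPM in the other WT controls, *Rbp2* (47.1 CPM) was near *Cldn2*KO control replicate 2 (45.9 CPM), and *Apoa4* had 0 reads outside recovery. *Apoa1*, called higher in recovery in both genotypes, did not follow it either, at 0.0655 CPM in that control and 0.148 to 1.34 CPM in recovery, and *Apoc3* was at most 0.464 CPM in any library. *Cdx2*, a transcription factor of the intestinal epithelium, was at 336.6 CPM in that control and 214 to 242 CPM in the recovery libraries, against 13.6 to 31.0 CPM in the remaining 11. Recovery and this split cannot be told apart in *Cldn2*KO mice, where no control library was low in *Hoxb13*, and in WT mice only 1 control was low in it, a library that also stood far from its replicates (chi-square per degree of freedom 320.1 and 253.8, against 11.9 between the other pair). The labels give colon for every sample, and the study's text gives distal colon for the recovery RNA. The place along the bowel that each sample came from was not tested, and it cannot be told apart from recovery, the recovery levels of *Sis* included. Values without WT control replicate 2 are given beside the main results of the comparisons that use it. For *Xist*, 6 libraries were above 10 CPM, namely replicates 2 and 3 of WT recovery, *Cldn2*KO recovery and *Cldn2*KO AOM/DSS. No control and no WT AOM/DSS library was. Recovery against control, AOM/DSS against control in *Cldn2*KO mice and the genotypes with AOM/DSS were thus unbalanced for this sex-linked transcript. With *Xist* status as a covariate, 5 of the 10 genes were called for recovery in WT, 1 in *Cldn2*KO mice and 0 between genotypes with AOM/DSS. The part of sex was not tested further.

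**Figure D1:**
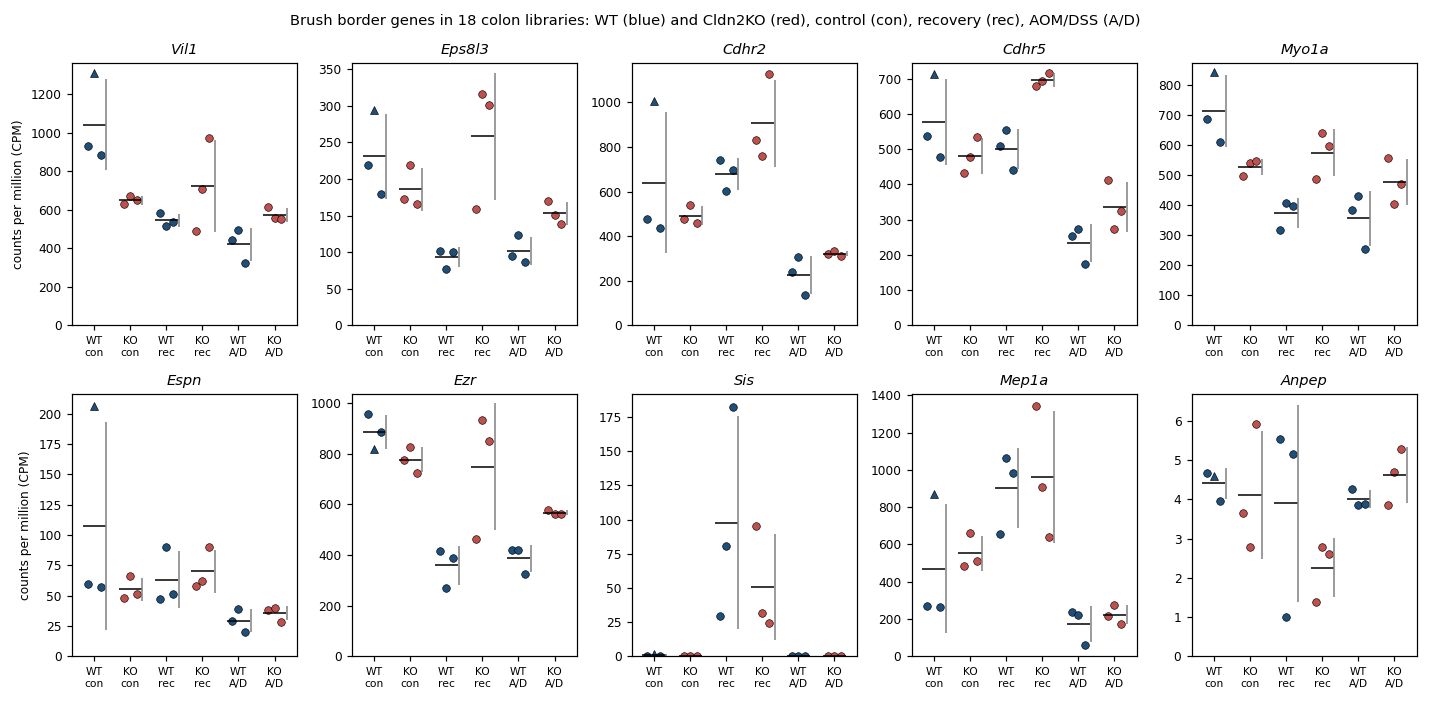
Level of each gene in CPM (linear axis from 0, 1 panel per gene) in the 18 libraries, by group, with WT in blue and *Cldn2*KO in red; points are libraries, black bars group means, grey lines mean ± SD, and the triangle is WT control replicate 2. *Sis* is at 24.6 CPM or above in the 6 recovery libraries and at most 1.90 CPM elsewhere, and the 7 structural genes are lower in WT AOM/DSS than in WT controls.

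Villin was among the most abundant of the 10 transcripts. In WT mice, *Vil1* measured 933, 1314 and 884 CPM in controls, 584, 515 and 537 CPM in recovery, and 442, 493 and 326 CPM with AOM/DSS. In *Cldn2*KO mice the same series read 628, 674 and 651 CPM, 493, 708 and 971 CPM, and 617, 555 and 551 CPM. WT controls lay above every other WT library, while in *Cldn2*KO mice the recovery libraries spread to both sides of the controls.

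*Eps8l3* had 220, 294 and 180 CPM in WT controls, 102, 77.2 and 100 CPM in WT recovery and 94.1, 124 and 86.8 CPM in WT AOM/DSS. Without *Cldn2* it had 173, 219 and 166 CPM in controls, 159, 316 and 301 CPM in recovery and 170, 150 and 139 CPM in AOM/DSS. All 3 *Cldn2*KO recovery libraries were above all 3 WT recovery libraries.

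*Ezr*, which encodes the membrane linker ezrin, was at 956, 819 and 885 CPM in WT controls and fell to 418, 270 and 389 CPM in WT recovery. WT AOM/DSS libraries had 419, 419 and 326 CPM. The *Cldn2*KO values were 777, 826 and 726 CPM in controls, 463, 932 and 851 CPM in recovery and 578, 563 and 561 CPM in AOM/DSS. As with *Vil1* and *Eps8l3*, replicate 1 was the lowest of the *Cldn2*KO recovery libraries and the other two were near or above the control level. *Myo1a*, the membrane-bound motor, was at 685, 842 and 609 CPM in WT controls, 316, 408 and 396 CPM in WT recovery and 382, 431 and 254 CPM in WT AOM/DSS. In *Cldn2*KO mice it ranged from 494.5 to 544 CPM in controls, from 488 to 638 CPM in recovery and from 401 to 556 CPM in AOM/DSS, so all 3 ranges overlapped.

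The first of the tip-link cadherins, *Cdhr2*, measured 479, 1006 and 435 CPM in WT controls, 741, 602 and 695 CPM in WT recovery and 237, 305 and 136 CPM in WT AOM/DSS. Its *Cldn2*KO libraries had 476, 539 and 460 CPM in controls, 831, 760 and 1127 CPM in recovery and 320, 333 and 311 CPM in AOM/DSS. *Cdhr2* was thus higher in the 6 recovery libraries (602 CPM and above) than in each of the 11 libraries with *Hoxb13* (539 CPM and below), and WT control replicate 2 lay within the recovery range. *Cdhr5*, its partner, had 538, 714 and 479 CPM in WT controls and 254, 274 and 174 CPM in WT AOM/DSS, with 440 to 554 CPM in WT recovery. Without *Cldn2* it had 432 to 533 CPM in controls, 679 to 718 CPM in recovery and 273 to 412 CPM in AOM/DSS, 3 ranges that did not overlap. *Espn*, an actin bundler, was the least abundant structural gene, at 59.6, 207 and 57.0 CPM in WT controls and 29.2, 38.6 and 19.9 CPM in WT AOM/DSS, so its control mean rested on replicate 2. Its recovery libraries had 47.6 to 90.4 CPM over both genotypes, and those of *Cldn2*KO mice 48.2 to 66.3 CPM in controls and 28.7 to 39.6 CPM in AOM/DSS.

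Among the hydrolases, *Sis* showed the widest span. It had 2, 29 and 0 reads in WT controls and 0, 2 and 0 reads in *Cldn2*KO controls, and the 29 reads belonged to WT control replicate 2, nearly without posterior Hox transcripts. In recovery it had 727, 1126 and 3085 reads in WT mice (29.6, 80.8 and 182.5 CPM) and 1775, 684 and 500 reads in *Cldn2*KO mice (95.1, 31.7 and 24.6 CPM). With AOM/DSS it was back at 3, 0 and 1 reads in WT and 3, 11 and 1 reads in *Cldn2*KO libraries. No recovery library overlapped any library of another group. The 3 WT recovery libraries themselves spread widely, with a mean of 97.6 ± 77.8 CPM (SD, n = 3), and so did the *Cldn2*KO ones, at 50.5 ± 38.8 CPM.

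*Mep1a* had 272, 871 and 267 CPM in WT controls, 657, 1066 and 984 CPM in WT recovery and 238, 223 and 62.4 CPM in WT AOM/DSS. The *Cldn2*KO libraries had 485, 661 and 509 CPM in controls, 1342, 910 and 639 CPM in recovery and 215, 276 and 176 CPM in AOM/DSS. WT control replicate 2 again stood with the recovery libraries, and replicate 1 of *Cldn2*KO recovery, the lowest of its group for *Vil1*, *Eps8l3* and *Ezr*, was the highest for *Mep1a* and *Sis*. *Anpep* was scarce everywhere, with 1505 reads over all 18 libraries and 1.0 to 5.92 CPM per library, and no group stood apart.

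Levels can be set between genes only per length. Per kilobase of exon, the WT control means were 294 CPM for *Vil1*, 269 for *Ezr*, 219 for *Cdhr5*, 210 for *Myo1a*, 155 for *Cdhr2*, 136 for *Mep1a* and 102 for *Eps8l3*, then 13.03 for *Espn*, 1.07 for *Anpep* and 0.0883 for *Sis*. The ranges of libraries overlapped between neighbours in this order down to *Eps8l3*, and from *Eps8l3* downwards no 2 neighbours overlapped. In WT recovery *Mep1a* led at 261 CPM per kilobase, followed by *Cdhr5* at 191, *Cdhr2* at 164.5 and *Vil1* at 154, and *Ezr* was at 109. *Sis* reached 13.1 CPM per kilobase there, with a range (3.96 to 24.4) that covered *Espn* (5.76 to 10.9). In WT AOM/DSS the order of the controls returned at lower levels, except that *Myo1a* stood ahead of *Cdhr5*, from 118 CPM per kilobase for *Vil1* to 54.8 for *Cdhr2*, 50.5 for *Mep1a* and 44.7 for *Eps8l3*.

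Summed over the 7 structural genes, the group means ran from WT controls at 4197 ± 881 CPM (SD, n = 3 here and below) through *Cldn2*KO recovery at 3977 ± 750 CPM, *Cldn2*KO controls at 3167 ± 159 CPM, WT recovery at 2614 ± 101 CPM and *Cldn2*KO AOM/DSS at 2463 ± 200 CPM to WT AOM/DSS at 1755 ± 391 CPM. Neighbours in this order overlapped in their libraries, except *Cldn2*KO controls over WT recovery and *Cldn2*KO AOM/DSS over WT AOM/DSS. Single genes kept to it in part: WT AOM/DSS was the lowest group for *Vil1*, *Cdhr2*, *Cdhr5*, *Myo1a* and *Espn*, and WT recovery for *Eps8l3* and *Ezr*. The highest group mean was 2.0 times the lowest for *Myo1a*, 2.48 times for *Vil1*, 4.01 times for *Cdhr2* and 5.53 times for *Mep1a*.

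**Figure D2:**
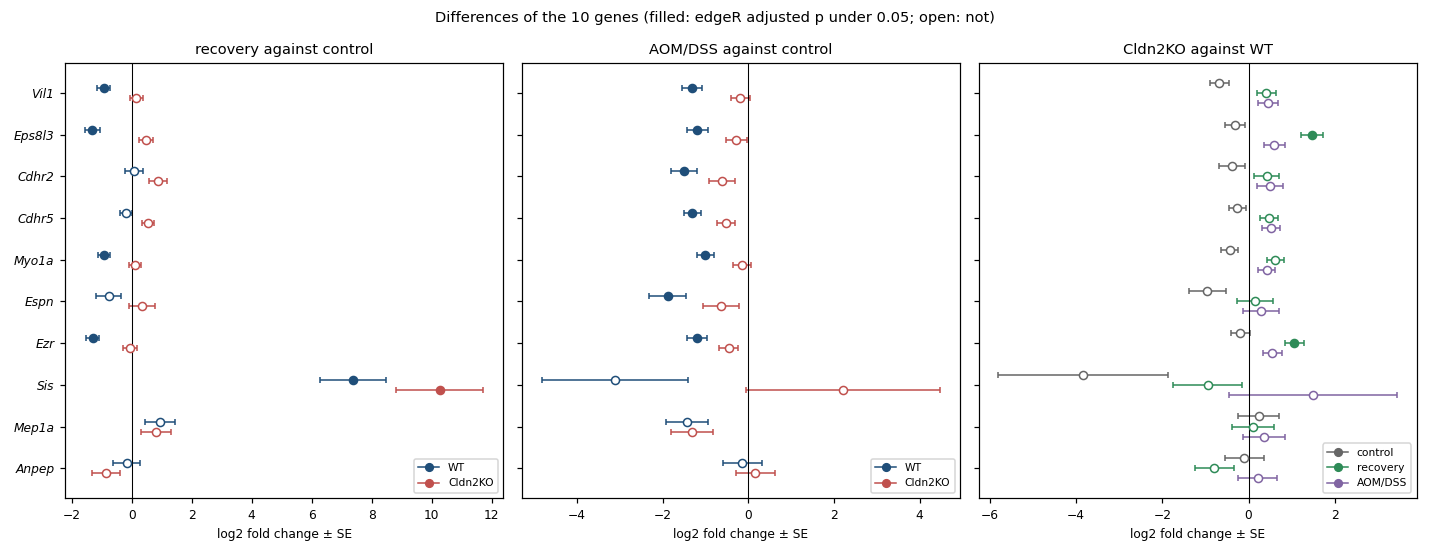
Log2 fold change ± SE (edgeR, linear axes that differ between panels) of each gene for recovery against control, AOM/DSS against control and *Cldn2*KO against WT; filled points passed an adjusted p of 0.05 and open points did not. In WT mice all 7 structural genes are left of 0 with AOM/DSS, and *Sis* is far right of 0 in recovery in both genotypes.

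The first comparison asked what AOM/DSS tumorigenesis did to these genes. In WT mice all 7 structural genes were called lower than in controls and none of the hydrolases was called. Over all 16937 genes tested, 6.58% were called lower and 3.81% higher in this comparison (edgeR's quasi-likelihood test, Benjamini-Hochberg adjusted p under 0.05, no fold threshold, as in every comparison here). All shares over all genes are those of the edgeR fit of all 18 libraries. None is given for DESeq2, limma-voom, other scalings or fits without a library, so counts from these stand without a baseline. The log2 fold changes were -1.31 ± 0.227 (SE) for *Vil1*, -1.19 ± 0.247 for *Eps8l3*, -1.50 ± 0.306 for *Cdhr2* and -1.30 ± 0.205 for *Cdhr5*, with adjusted p of 0.00693, 0.0147, 0.0137 and 0.00436 from edgeR. They were -1.0 ± 0.203 for *Myo1a*, -1.88 ± 0.434 for *Espn* and -1.19 ± 0.226 for *Ezr*, with edgeR adjusted p of 0.0134, 0.022 and 0.0105. The fall was thus 2.0-fold for *Myo1a* and 3.68-fold for *Espn* at the extremes. Without WT control replicate 2 the change of *Espn* shrank to -1.01, and the 7 genes ran from -0.88 (*Myo1a*) to -1.26 (*Ezr*). The summed level of the 7 genes was 3869, 5196 and 3527 CPM in WT controls and 1858, 2084 and 1323 CPM in WT AOM/DSS. The difference for *Mep1a* was -1.43 ± 0.495 on the log2 scale (edgeR adjusted p = 0.0717; DESeq2 adjusted p = 0.022), and -0.65 without WT control replicate 2 (edgeR adjusted p = 0.409). *Anpep* was at -0.14, with a 95% interval from -1.10 to 0.82, and *Sis* had too few reads in both groups for a fold.

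These are bulk tissue samples, in which fewer epithelial cells and less RNA per cell cannot be told apart. The summed level of 15 general epithelial genes was 16090 to 19110 CPM in WT controls and 10780 to 13000 CPM in WT AOM/DSS, with 5 of the 15 called lower, or 2 without WT control replicate 2. Scaled to those epithelial genes, all 7 structural genes were still called lower, by 0.66 (*Myo1a*) to 1.57 (*Espn*) on the log2 scale, while the median of all genes moved to 0.37. Of 8 markers of surface colonocytes, the mature absorptive cells, 6 were called lower in WT AOM/DSS, or 3 without WT control replicate 2. Their summed level was 6704, 57540 and 6118 CPM in the controls, with *Car1* alone at 45440 CPM in replicate 2, and 1106 to 3478 CPM with AOM/DSS. Markers of other cells moved as well. Of 8 genes of enteric neurons and glia 5 were called lower (15.2 to 28.5 CPM summed, against 44.1 to 81.6 CPM), or 2 without WT control replicate 2, and of 10 smooth muscle genes 4 were (628 to 3299 against 4267 to 6310 CPM), or 0 without it. The 9 T and NK cell genes tested were all below 0, 1 of them called, and their median of -2.04 was -0.08 without that library. The neutrophil genes *S100a8* and *S100a9*, the 2 of 7 myeloid genes called, and *Axin2*, the 1 of 6 crypt progenitor genes called, were higher, and without it neither list had a call. Of 7 small intestine enterocyte genes tested, 3 were called lower (*Fabp2*, *Slc10a2* and *Rbp2*; median -1.07), or 0 without it (-0.10). The part of these lists in the result was not tested. Without WT control replicate 2, *Eps8l3* (edgeR adjusted p = 0.0531) and *Espn* (0.0798) were no longer called and the other 5 were. Without WT AOM/DSS replicate 3, the lowest of its group for every structural gene, *Vil1* and *Cdhr5* alone stayed below the threshold. A fit of these 2 groups alone called none of the 10, with adjusted p of 0.155 to 0.17 for the 7 genes.

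In *Cldn2*KO mice none of the 10 genes was called with AOM/DSS by edgeR, against 0.195% of all genes in either direction. At an unadjusted p under 0.05 there were 2 genes, *Cdhr5* and *Mep1a*, against 2573 of all 16937 genes. DESeq2 called 0 and limma-voom with sample weights called 4 (*Cdhr2*, *Cdhr5*, *Ezr* and *Mep1a*), without a share over all genes for either. All 7 structural genes had log2 fold changes below 0, from -0.14 for *Myo1a* to -0.64 for *Espn*, with a median of -0.45. The summed structural level was 3028, 3341 and 3131 CPM in *Cldn2*KO controls and 2691, 2316 and 2383 CPM with AOM/DSS. *Mep1a* was at -1.31 ± 0.493 (edgeR adjusted p = 0.229), and *Vil1* at -0.18 with a 95% interval from -0.65 to 0.29. The 8 surface colonocyte genes were all below 0 here too, with a median of -2.15 against -2.04 in WT mice (-1.46 without WT control replicate 2). In *Cldn2*KO mice they summed to 10300 to 13800 CPM in controls and 1985 to 4131 CPM with AOM/DSS. EdgeR called 0 of them, with 5 at an unadjusted p under 0.05, DESeq2 3 and limma-voom 6. Smooth muscle genes, all 10 below 0 (median -1.21), had 0 called by edgeR, with 9 at an unadjusted p under 0.05, DESeq2 0 and limma-voom 10. Enteric neuron and glia genes, all 8 below 0 (median -0.87), had 0 called by edgeR, 2 at an unadjusted p under 0.05, DESeq2 0 and limma-voom 3. Crypt progenitor genes, all 6 above 0 (median 1.14), had 0 called by edgeR, 2 at an unadjusted p under 0.05, DESeq2 1 and limma-voom 2. The part of these lists in the values was not tested.

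Whether the response to AOM/DSS differed between genotypes was tested as an interaction. No member was called by edgeR, DESeq2 or limma-voom, against 0.0118% of all genes called by edgeR. At an unadjusted p under 0.05 there were 5 members, against 1429 of all 16937 genes. The interaction was above 0 for all 10 genes, from 0.12 for *Mep1a* to 1.24 for *Espn* on the log2 scale leaving *Sis* aside, with *Vil1* at 1.13 ± 0.316 (edgeR adjusted p = 0.404). Leaving out WT control replicate 2 lowered the median over the 10 genes from 0.87 to 0.68, *Espn* to 0.38 and *Mep1a* to -0.65, below 0. Other lists shifted the same way with 0 called by edgeR: T and NK cell genes were above 0 in 9 of 9 cases (median 2.98, or 1.11 without that library; 6 at an unadjusted p under 0.05, DESeq2 1, limma-voom 0), enteric neuron and glia genes in 8 of 8 (0.94, or 0.55; 1, 0 and 0) and general epithelial genes in 13 of 15 (0.36, or 0.31; 3, 1 and 2). Their part in these values was not tested.

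Recovery from colitis was compared with the controls next. In WT mice 4 structural genes were called lower and *Sis* was called higher, where 12.2% of all genes were called lower and 10.0% higher. *Eps8l3* fell by 1.31 ± 0.248 on the log2 scale (edgeR adjusted p = 0.00271) and *Ezr* fell by 1.30 ± 0.227 (0.00177). *Vil1* fell by 0.94 ± 0.225 (edgeR adjusted p = 0.00938) and *Myo1a* fell by 0.93 ± 0.203 (0.00551). The cadherins were not called: *Cdhr2* was at 0.09, with a 95% interval from -0.55 to 0.72, and *Cdhr5* at -0.20, with an interval from -0.63 to 0.23. Limma-voom called *Cdhr2* higher (adjusted p = 0.00734) and *Mep1a* too (0.000204). The general epithelial genes were lower too, at 10240 to 14290 CPM summed, with 7 of 15 called lower. Markers of other cells moved as well: smooth muscle genes were called lower in 6 of 10 cases (885.7 to 2438 CPM summed, against 4267 to 6310 CPM in controls), B and plasma cell genes in 4 of 6 (183 to 295 against 1519 to 1686 CPM), and myeloid genes in 3 of 7 (31.4 to 54.4 against 133 to 206 CPM), while 3 of 7 goblet cell genes were called higher (14700 to 26080 against 5096 to 10110 CPM). Surface colonocyte genes were called lower in 5 of 8 cases, but 1 was called lower and 2 higher without WT control replicate 2. They summed to 29020 to 51770 CPM in WT recovery, with *Car1* alone at 24300 to 43580 CPM. T and NK cell genes had 1 of 9 called lower, and 6 higher and 1 lower without that control (10.9 to 143 CPM summed in controls, 58.4 to 177.8 CPM in recovery). The part of these lists in the result was not tested. Scaled to the epithelial genes, the median of all genes moved to 0.42, *Eps8l3* and *Ezr* stayed called at -0.85 and -0.82, *Vil1* (-0.48, adjusted p = 0.0998) and *Myo1a* (-0.48, 0.0533) did not, and the sign of *Cdhr5* turned to 0.24.

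WT control replicate 2 shares the near absence of posterior Hox transcripts with the recovery libraries. As a description of this 1 library, it had more *Vil1* (1314 CPM against 515 to 584), *Eps8l3* (294 against 77.2 to 102), *Myo1a* (842 against 316 to 408) and *Ezr* (819 against 270 to 418) than each WT recovery library. Its *Mep1a* (871 CPM) lay within the range of WT recovery, and its *Cdhr2* (1006 CPM) above it. Without this library all 4 structural genes remained called, at -0.76 (*Vil1*) to -1.38 (*Ezr*), *Sis* remained called, and *Mep1a* was called as well, at 1.72 against 0.94 ± 0.489 with it (edgeR adjusted p = 0.0131 and 0.18). The edgeR call for *Mep1a* in WT recovery thus changed with 1 control library, and 1 such control cannot separate recovery from the Hox split for any of these genes.

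*Sis* was higher in WT recovery than in WT controls by a ratio of pooled CPM of 169 (95% counting interval 119 to 249.6), from 4938 reads against 31, and its edgeR adjusted p was 0.00104. Because *Sis* passed the filter on low counts only through the recovery libraries, its adjusted p values for recovery are not separate support for the difference. Without WT control replicate 2 the ratio was 1946 (538 to 16070), from 4938 reads against 2. In *Cldn2*KO mice the ratio of recovery to control was 1390.0 (384.5 to 11480), from 2959 reads against 2 (edgeR adjusted p = 0.000623). WT control replicate 2, with *Sis* at 1.90 CPM, was above the other 11 libraries outside recovery (at most 0.357 CPM) and below each recovery library (at least 24.6 CPM). The counting intervals leave out the spread between mice.

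**Figure D3:**
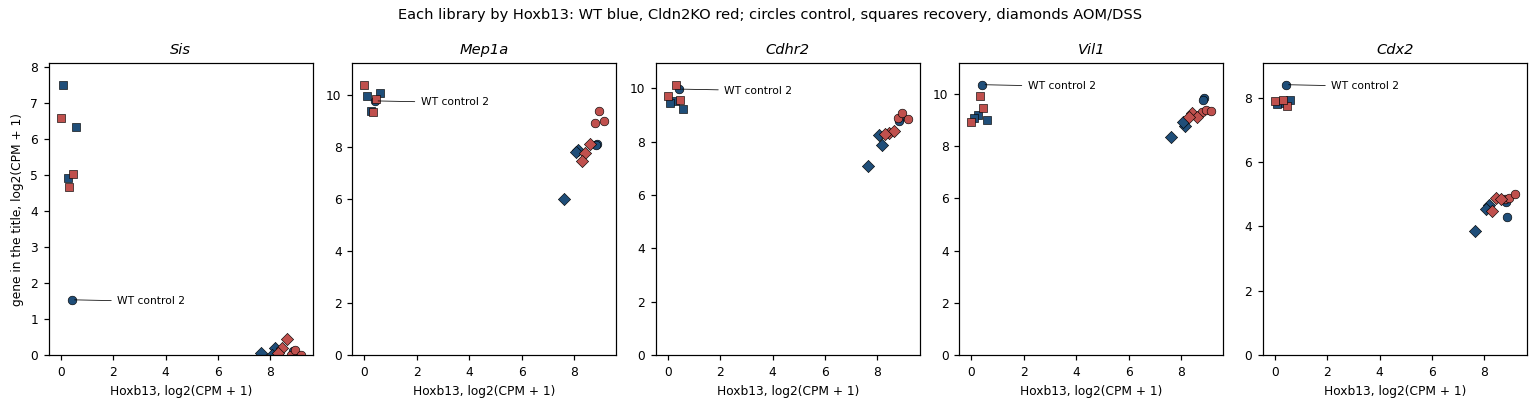
Level of *Sis*, *Mep1a*, *Cdhr2*, *Vil1* and *Cdx2* against *Hoxb13* in each of the 18 libraries, both as log2(CPM + 1), with WT in blue, *Cldn2*KO in red, circles for control, squares for recovery and diamonds for AOM/DSS. The 6 recovery libraries and WT control replicate 2 are at the left of every panel, and *Cdx2* splits the libraries the same way while *Vil1* does not.

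In *Cldn2*KO mice recovery called *Sis* alone, where 9.43% of all genes were called higher and 10.0% lower. No structural gene was called by edgeR, and 2 of 7 had an unadjusted p under 0.05, as had 5507 of all 16937 genes. *Cdhr2* was at 0.88 ± 0.302 (edgeR adjusted p = 0.0511) and *Cdhr5* at 0.53 ± 0.202 (0.0759). DESeq2 called both higher (adjusted p = 0.0247 and 0.0479), as did limma-voom and the fit of these groups alone. The genes called lower in WT recovery were at 0.15 (*Vil1*, 95% interval from -0.32 to 0.63), 0.48 (*Eps8l3*, -0.04 to 0.99), 0.13 (*Myo1a*, -0.30 to 0.55) and -0.05 (*Ezr*, -0.53 to 0.42). The general epithelial sum was 14920 to 17850 CPM in *Cldn2*KO controls and 10190 to 15010 CPM in *Cldn2*KO recovery. Smooth muscle genes, 10 of 10 called lower, summed to 8533 to 11440 CPM and 1025 to 1619 CPM. Of 9 T and NK cell genes 5 were called higher (1.28 to 8.56 CPM summed in controls, 24.2 to 39.0 CPM in recovery), and of 7 goblet cell genes 2 were (8713 to 9880 and 13360 to 14950 CPM). Myeloid genes had 3 of 7 called lower and 2 higher, and B and plasma cell genes 2 of 6 lower. Surface colonocyte genes had 3 of 8 lower (*Slc20a1*, *Car4* and *Slc26a3*) and 1 higher, *Guca2a*, and summed to 10300 to 13800 and 16050 to 39080 CPM. *Car1* alone was at 2626 to 4318 CPM in these controls and 8171 to 32280 CPM in recovery, and *Car4* at 1296 to 1575 and 214 to 257 CPM. *Car1* and *Guca2a* were also high in WT control replicate 2 (45440 and 2793 CPM). The part of these lists in the values above was not tested.

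The genotypes were then compared directly. In recovery *Eps8l3* and *Ezr* were called higher in *Cldn2*KO than in WT mice, against 0.549% of all genes called higher. *Eps8l3* was higher by 1.47 ± 0.249 on the log2 scale, or 2.78-fold (edgeR adjusted p = 0.0173), and *Ezr* by 1.06 ± 0.226, or 2.08-fold (0.0418). *Myo1a* was at 0.62 ± 0.202 (edgeR adjusted p = 0.105; DESeq2 0.0433) and *Cdhr5* at 0.47 ± 0.202 (0.205). The summed structural level was 2717, 2516 and 2609 CPM in WT recovery and 3170, 4108 and 4652 CPM in *Cldn2*KO recovery, without overlap. Of 6 crypt progenitor genes tested, 5 had log2 fold changes below 0 (median -0.94) and 0 were called by edgeR, with 1 at an unadjusted p under 0.05, DESeq2 0 and limma-voom 2; their list summed to 589, 391 and 372 CPM in WT and 130, 103 and 459 CPM in *Cldn2*KO recovery. Of 6 B and plasma cell genes 5 were below 0 (median -1.69) and *Jchain* was called lower, and the list summed to 183 to 295 CPM in WT and 41.6 to 43.4 CPM in *Cldn2*KO recovery, without overlap. The 9 T and NK cell genes tested were all below 0 (median -1.39), with 0 called by edgeR, 1 at an unadjusted p under 0.05 and 0 by DESeq2 or limma-voom, and summed to 58.4 to 177.8 and 24.2 to 39.0 CPM. General epithelial genes were above 0 in 14 of 15 cases (median 0.27), with 0 called by edgeR, 4 at an unadjusted p under 0.05, DESeq2 1 and limma-voom 4. Enteric neuron and glia genes were above 0 in 8 of 8 (0.46), with 0 at an unadjusted p under 0.05. That level held for 3371 of all 16937 genes. The part of these lists was not tested. Both calls were lost when WT recovery replicate 2, WT recovery replicate 3 or *Cldn2*KO recovery replicate 2 was left out, and *Ezr* also without *Cldn2*KO recovery replicate 3 (adjusted p = 0.0539) and with *Xist* status as a covariate (0.0676). The fit of these 2 groups alone called neither (adjusted p = 0.139 and 0.225). With epithelial scaling, which moved the median of all genes to -0.25, both stayed called at 1.16 and 0.74. All 6 libraries of this comparison were nearly without posterior Hox transcripts.

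In controls no member was called between genotypes by edgeR, against 1.17% of all genes. At an unadjusted p under 0.05 there were 3 (*Vil1*, *Myo1a* and *Espn*), against 2223 of all 16937 genes. DESeq2 called 0, and limma-voom called *Vil1* (adjusted p = 0.00933) and *Mep1a* (0.0239). *Vil1* was at -0.68 ± 0.224 (edgeR adjusted p = 0.174), and at -0.50 without WT control replicate 2. *Espn* went from -0.96 to -0.10 without that library. Of 9 T and NK cell genes 4 were called lower in *Cldn2*KO controls (median -3.89), or 0 without it (-1.92). Of 6 B and plasma cell genes 2 were called lower with or without it, and the 10 smooth muscle genes were all above 0 (median 0.91) with 0 called by edgeR, 1 at an unadjusted p under 0.05, DESeq2 0 and limma-voom 2. With AOM/DSS no member was called by edgeR, against 0.0059% of all genes, although all 10 had log2 fold changes above 0. DESeq2 and limma-voom called 0. At an unadjusted p under 0.05 there were 3 (*Eps8l3*, *Cdhr5* and *Ezr*), against 949 of all 16937 genes. *Eps8l3* was at 0.59 ± 0.244, *Ezr* at 0.55 ± 0.224 and *Cdhr5* at 0.52 ± 0.202 there (edgeR adjusted p = 0.862 for each). Other lists lay to the same side there with 0 called by edgeR, DESeq2 or limma-voom: smooth muscle genes were above 0 in 10 of 10 cases (median 1.09, 4 at an unadjusted p under 0.05), enteric neuron and glia genes in 8 of 8 (0.95, 3) and general epithelial genes in 14 of 15 (0.21, 0). The part of these lists in either comparison was not tested.

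For the interaction of recovery with genotype 5 members had an unadjusted p under 0.05, against 3141 of all 16937 genes. No member was called by edgeR, against 0.13% of all genes. *Eps8l3* came nearest, at 1.79 ± 0.347 on the log2 scale (edgeR adjusted p = 0.0548), followed by *Ezr* at 1.25 ± 0.317 (0.0834), *Myo1a* at 1.06 ± 0.285 (0.093) and *Vil1* at 1.09 ± 0.316 (0.106). DESeq2 called these 4 and limma-voom called them with *Cdhr5*. Without *Cldn2*KO recovery replicate 1, *Eps8l3*, *Ezr* and *Vil1* were called. Leaving out WT control replicate 2 gave 0 calls and moved the median over the 10 genes from 1.07 to 0.44, *Espn* from 1.11 to 0.23 and *Sis* from 2.88 to -0.63. All 7 structural genes had an interaction above 0, from 0.74 for *Cdhr5* to 1.79, whereas *Mep1a* was at -0.14, with a 95% interval from -1.59 to 1.32. General epithelial genes were above 0 in 14 of 15 cases (median 0.34), with *Tjp3* called, and T and NK cell genes in 9 of 9 (2.72, or 0.84 without WT control replicate 2), with 0 called by edgeR, 5 at an unadjusted p under 0.05, and 1 each by DESeq2 and limma-voom. Smooth muscle genes were below 0 in 10 of 10 cases (median -1.11), with 0 at an unadjusted p under 0.05 and 0 called by any of the 3 tools. The part of these lists was not tested.

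The rest of the brush border was read from longer lists, counted in the same fits. Of 21 other structural genes, 20 were tested, and in WT AOM/DSS 10 were called lower and 1 higher, against 6.58% and 3.81% of all genes, with a median log2 fold change of -0.74 against 0.01 over all genes. The largest falls were those of *Tmigd1* (-5.98 ± 1.35), a cell adhesion protein, *Stk10* (-2.83 ± 0.44), a kinase of ezrin, and *Slc9a3r1* (-2.34 ± 0.347), the scaffold that binds ezrin. In WT control replicate 2 *Stk10* was at 145 CPM and *Slc9a3r1* at 730 CPM. The other WT controls had 49.1 and 48.8 CPM and 281 and 267 CPM, so the size of both falls rested in part on that library. *Tmigd1* had 425.7 CPM in WT control replicate 2 and 3.3 and 7.7 CPM in the other controls, and was no longer called without it (-1.25, edgeR adjusted p = 0.121). *Vill*, a villin-like gene, was the 1 called higher (2.34 ± 0.678, edgeR adjusted p = 0.0423), a count near the share of all genes. Without WT control replicate 2 the counts were 4 lower (*Stk10*, *Slc9a3r1*, *Eps8l2* and *Baiap2l1*) and 0 higher. *Ush1c* (-0.83 ± 0.203) and *Anks4b* (-1.16 ± 0.246), which hold the tip-link cadherins to the actin core, were among those called lower while that library was kept (edgeR adjusted p = 0.025 and 0.0159). In *Cldn2*KO AOM/DSS edgeR called 0 of the 20, DESeq2 1 and limma-voom 6. At an unadjusted p under 0.05 there were 5, against 2573 of all 16937 genes.

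In recovery, 6 of these 20 genes were called lower and 1 higher in WT mice, and 2 lower and 4 higher in *Cldn2*KO mice, with medians of -0.34 and 0.19 against -0.04 and 0.0037 over all genes. Over all genes 12.2% were called lower and 10.0% higher in WT mice, and 10.0% and 9.43% in *Cldn2*KO mice, so that the count lower in *Cldn2*KO mice and the count higher in WT mice were at or below those shares. Without WT control replicate 2 the WT counts were 6 lower and 2 higher, and the WT median was -0.09. *Stk10* (-1.87 ± 0.423), *Myo1e* (-1.30 ± 0.216), a membrane-bound myosin, and *Lima1* (-1.22 ± 0.196), which binds actin filaments, led the falls in WT mice. *Stk10* was at 145 CPM in WT control replicate 2 and 49.1 and 48.8 CPM in the other WT controls, so the size of its fall rested in part on that library. *Lima1* (-0.79 ± 0.195) and *Twf2* (-0.65 ± 0.196), a twinfilin, fell in *Cldn2*KO mice. *Baiap2l2*, which encodes a protein of the microvillus tip, rose in both, by 0.96 ± 0.291 and 1.67 ± 0.296. *Tmigd1* rose in *Cldn2*KO mice (7.63 ± 1.44), from 2.6 to 5.4 CPM in controls to 588 to 994 CPM in recovery. In WT mice *Tmigd1* was at 974 to 1401 CPM in recovery, with a log2 fold change of 2.98 ± 1.15 that was not called (edgeR adjusted p = 0.0752) with WT control replicate 2 at 425.7 CPM, and of 7.70 without that library (2.41e-07). *Myo7b*, the motor of the tip links, rose by 1.0 ± 0.297 in *Cldn2*KO mice. Between genotypes edgeR called 0 of the 20 in controls, recovery and AOM/DSS. At an unadjusted p under 0.05 there were 5, 11 and 2 (2223, 3371 and 949 of all 16937 genes). DESeq2 called 1, 5 and 0 and limma-voom 3, 10 and 0.

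Among 23 other hydrolases, 18 were tested, and *Lct* (lactase) was among those too low to test. In WT recovery 3 were called higher and 2 lower, against 10.0% and 12.2% of all genes. Without WT control replicate 2 there were 6 higher and 2 lower, with no share over all genes from that fit to set beside them. In *Cldn2*KO recovery 5 were called higher and 3 lower, against 9.43% and 10.0%. *Ggt1* (gamma-glutamyltransferase) rose by 4.30 ± 0.735 in WT and 2.39 ± 0.673 in *Cldn2*KO mice, and *Naaladl1*, a peptidase, by 3.00 ± 0.488 and 2.41 ± 0.474. *Ggt1* was at 8.45 CPM in WT control replicate 2, 1.61 and 0.987 CPM in the other WT controls and 55.8 to 87.2 CPM in WT recovery. The size of its rise in WT mice thus depended on that library. *Alpi* (intestinal alkaline phosphatase) rose by 4.92 ± 1.36 in *Cldn2*KO mice, and in WT mice it was at 0.51 with WT control replicate 2 and 5.32 without it. *Nt5e*, the ectoenzyme CD73, and *Ace*, the angiotensin-converting enzyme, fell in both genotypes, *Nt5e* by 4.34 ± 0.717 and 4.09 ± 0.705 and *Ace* by 2.23 ± 0.291 and 1.94 ± 0.287. WT control replicate 2 sat with the recovery libraries for *Alpi* (57.2 CPM) and was near them for *Nt5e* (24.8 CPM, recovery at most 23.4), but not for *Naaladl1* (8.8 CPM). *Mme* (neprilysin), at 0.1 to 3.4 CPM, fell in *Cldn2*KO recovery by 1.82 ± 0.603 and was not called with epithelial scaling (adjusted p = 0.0782).

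With AOM/DSS 4 of the 18 were called lower in WT mice, against 6.58% of all genes, and 2 without WT control replicate 2. *Mep1b*, the partner subunit of *Mep1a*, fell by 1.81 ± 0.31 (edgeR adjusted p = 0.00669), from 187, 445 and 174 CPM to 78.4, 99.7 and 52.0 CPM, and remained called without WT control replicate 2. *Alpi* (-4.87 ± 1.35) and *Enpep* (-3.20 ± 0.931), a glutamyl aminopeptidase, were lost without it (adjusted p = 0.971 and 0.43). *Ace* was at -0.92 ± 0.277 (edgeR adjusted p = 0.0467) and stayed called without that library (-1.18, 0.0315), but not with epithelial scaling (-0.55, 0.156). *Mgam* (maltase-glucoamylase), an abundant disaccharidase here at 206 to 418 CPM, was at -0.25 ± 0.223, and *Dpp4* at -0.02 ± 0.317. In *Cldn2*KO AOM/DSS 0 of the 18 were called by edgeR, 1 by DESeq2 and 4 by limma-voom. At an unadjusted p under 0.05 there were 4, against 2573 of all 16937 genes.

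**Figure D4:**
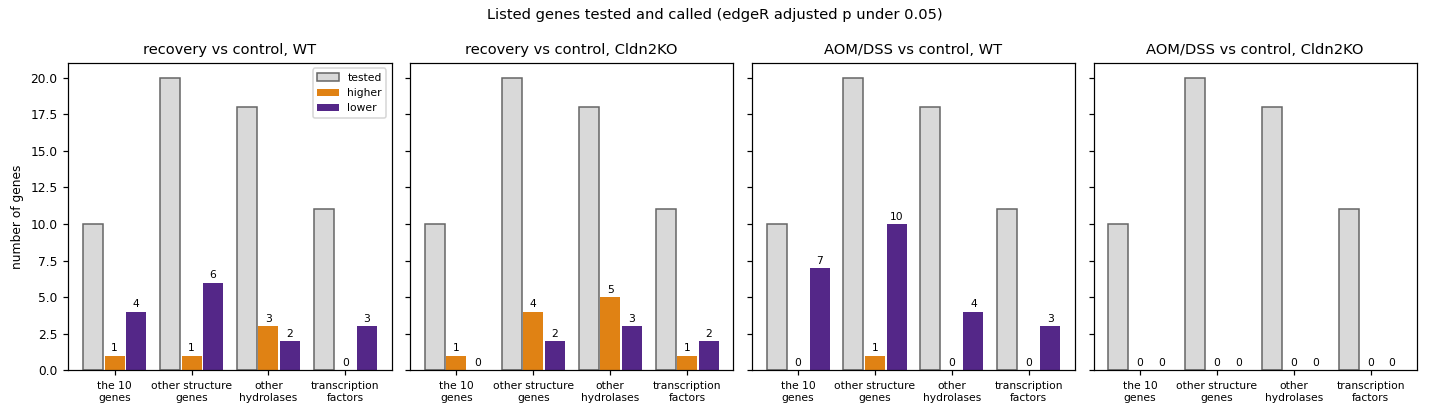
Number of genes tested (grey) and called higher (orange) or lower (purple) by edgeR for the 10 genes, the other structural genes, the other hydrolases and 12 transcription factors, in the 4 comparisons with control. In WT AOM/DSS 7 of the 10 genes and 10 of the 20 other structural genes are lower, and with AOM/DSS in *Cldn2*KO mice the counts called are 0 throughout.

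Of 12 transcription factors known to act on enterocyte genes, 11 were tested, and none of the 4 comparisons with control called more than 3. The shares called over all genes were 6.58% lower in WT AOM/DSS, 12.2% lower in WT recovery, and 10.0% lower and 9.43% higher in *Cldn2*KO recovery, where the 1 factor called higher is near that share of 11. In WT AOM/DSS *Hnf4a* (-0.82 ± 0.199), *Klf4* (-1.04 ± 0.212) and *Cdx2* (-2.66 ± 0.757) were called lower, and without WT control replicate 2 *Klf4* alone was. In WT recovery *Klf4* (-1.39 ± 0.214), *Smad4* (-1.21 ± 0.219), which carries TGF-beta and BMP signals, and *Hnf4a* (-0.60 ± 0.199) were called lower, and *Hnf4a* was called in 5 of 15 alternatives, not with epithelial scaling (-0.13, adjusted p = 0.657), not in the fit of these groups alone (0.102) and not without WT control replicate 2 (0.0994). Without that library *Cdx2* was called higher in WT recovery (3.34, against 0.85 with it). In *Cldn2*KO recovery *Cdx2* was called higher (2.99 ± 0.765) and *Smad4* (-0.86 ± 0.218) and *Klf4* (-0.84 ± 0.211) lower. *Prdm1* was lower in *Cldn2*KO than in WT controls (-2.58 ± 0.542, edgeR adjusted p = 0.0299), at 3.2 to 4.1 CPM against 11.5 to 36.3 CPM, and was not called without WT control replicate 2 (-1.97, 0.0867).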

How the data were processed

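The authors deposited raw counts of reads per gene, without normalization, for 18 colon libraries on 2 lanes each. RNA was extracted with a Zymo kit and sequenced on an Illumina NovaSeq instrument. The study's methods name TopHat2 as the aligner, whereas the submitters' processing notes name HISAT2, with featureCounts of Subread and GRCm38; versions and strandedness are not given in the sources used here. The submitters' labels of genotype and treatment gave the 6 groups.

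Lanes were summed (chi-square per degree of freedom between lanes 1.08 to 1.18; between replicates at least 11.9). Symbols came from the Ensembl identifiers, of which 47224 of 47729 matched and 505 did not. Counts were filtered with filterByExpr, which kept 16937 genes and dropped 30792, scaled by TMM and fitted with edgeR 4.0.16 (R 4.3.3; robust quasi-likelihood, 1 mean per group over all 18 libraries; biological coefficient of variation 0.315). Benjamini-Hochberg adjustment ran over all genes tested. Levels are CPM after TMM scaling, and length per gene came from the deposited table. DESeq2 1.42.0, limma-voom (limma 3.58.1) with sample weights, RLE, upper quartile and epithelial scaling, other filters, a fit of the groups compared, an *Xist* covariate (above 10 CPM) and leaving out each library were alternatives; scripts were tested on simulated data. Labels do not say that libraries came from separate mice, so p-values measure the spread between libraries. Intervals of pooled *Sis* ratios are exact 95% and cover counting error only.

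The 10 genes, the other lists, the motifs and the tests were chosen with earlier results of these data known. Genes named from the other brush border lists are those called with a mean of at least 1 CPM, up to 3 per list and direction by size of change, with up to 2 uncalled genes of known role; *Ush1c* and *Anks4b* were added after their values were seen, and 1 hydrolase that the rule names is not reported here.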

Additional observations from a re-analysis of the deposited data

How the results depend on the processing

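Of the 15 pairs of gene and comparison that were called, none changed sign under the alternatives, and 26 of 225 refits lost a call. Of 75 uncalled pairs, 41 of 1250 refits gained one. With limma-voom the number of the 10 genes called was 2 for *Cldn2*KO against WT in controls, 4 in recovery, 4 for recovery in *Cldn2*KO mice, 4 for AOM/DSS in *Cldn2*KO mice and 5 for the recovery interaction. With DESeq2 it was 3 for recovery in *Cldn2*KO mice and 4 for the recovery interaction. Fitting only the groups compared gave 0 for the genotypes in recovery, 3 for recovery in *Cldn2*KO mice, 0 for AOM/DSS in WT and 2 in *Cldn2*KO mice. Epithelial scaling gave 3 for recovery in WT, 2 in *Cldn2*KO mice and 1 for the recovery interaction, no filter gave 2 and 1 for the latter pair, and the *Xist* covariate gave 1 for the genotypes in recovery; the cause was not tested. Leaving out 1 library gave 0 to 2 for the genotypes in recovery, 5 to 6 for recovery in WT, 1 to 2 in *Cldn2*KO mice, 2 to 8 for AOM/DSS in WT and 0 to 3 for the recovery interaction, and 0 to 0 for each of the others.

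Signs turned in 19 uncalled pairs. With epithelial scaling the log2 differences that turned were 0.24 for *Cdhr5* and 0.35 for *Anpep* for recovery in WT, 0.22 for *Anpep* with AOM/DSS in WT, 0.022 for *Anpep* between control genotypes, -0.089 for *Espn* and -0.11 for *Mep1a* between genotypes in recovery, and -0.11 for the AOM/DSS interaction of *Mep1a*. With limma-voom they were 0.072 for *Cdhr2* between control genotypes, -0.044 for *Espn* between genotypes with AOM/DSS, -0.88 for the recovery interaction of *Sis*, -0.89 for the AOM/DSS interaction of *Mep1a* and 0.16 for *Anpep* for recovery in WT. Leaving out 1 library moved recovery in *Cldn2*KO mice from -0.12 to 0.37 for *Vil1* and from -0.24 to 0.20 for *Ezr*, and recovery in WT from -0.13 to 0.55 for *Cdhr2*, from -1.12 to 0.089 for *Espn* and from -0.51 to 0.27 for *Anpep*. It moved AOM/DSS from -4.35 to 0.39 for *Sis* in WT and from -0.050 to 0.55 for *Anpep* in *Cldn2*KO mice. Between genotypes it moved *Cdhr2* from -0.59 to 0.082, *Mep1a* from -0.050 to 1.01 and *Anpep* from -0.47 to 0.12 in controls, *Espn* from -0.075 to 0.48 and *Mep1a* from -0.22 to 0.32 in recovery, and *Mep1a* from -0.049 to 0.64 with AOM/DSS. The recovery interaction ran from -0.63 to 5.68 for *Sis* and from -0.93 to 0.14 for *Mep1a*, and the AOM/DSS interaction of *Mep1a* from -0.65 to 0.41.

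Control replicate numbers were the only ones shared by label between groups. Libraries of the same number correlated at 0.158, 0.0023 and 0.079 in their deviations from the group means, so the numbers were not taken to pair them. With the replicate block, 0 of the 10 genes were called between control genotypes. Depth limits *Sis* outside recovery and *Anpep* throughout.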
